A study of Solanum lycopersicum with 12 samples.

Results

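Leaf RNA of plants exposed to ultrasound was compared with that of plants that were not, across a background with and without drought. The 6 libraries with ultrasound (groups US and US + D, 3 each) were set against the 6 without it (groups C and D, 3 each), which are all 12 libraries of the series. They were chosen by their treatment labels alone. Drought entered the model as a second factor and no interaction term was fitted, so that each gene received 1 ultrasound effect averaged over both conditions.

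The plants were tomato (Solanum lycopersicum) of the dwarf cultivar Micro Tom, and all groups were sampled 48 h after the stimuli. Plants of US stood under an ultrasonicator of 30 kHz and 120 W for 5 min, at a mean distance of 6 cm and with air as the medium. Plants of US + D had the same exposure and directly afterwards 10 ml of a 20% polyethylene glycol (PEG) solution, which lowers the water potential around the roots. Plants of D had the solution only, and plants of C were not treated. Each group comprised 3 biological replicates. Whether C and D plants were moved and handled like the sonicated ones is not given in the sources used here, so that exposure and handling cannot be told apart.

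Plants have no hearing organ, and vibration and touch are thought to be sensed at the cell wall and plasma membrane, where calcium channels and receptor-like kinases act. Downstream of such stimuli stand jasmonate, ethylene and auxin signalling, wound-inducible proteinase inhibitors and enzymes that loosen or strengthen the cell wall. Expansins, xyloglucan endotransglucosylases and EXORDIUM proteins belong to the wall group, and AP2/ERF and NAC proteins are large families of plant transcription factors.

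The count table listed 34075 genes, of which 22157 passed the filter on low counts, and 6463 were without a read in every library. The library totals ran from 33640280 to 87164190 counts with ultrasound and from 37905900 to 106829565 without it (exact permutation test of the means, two-sided p = 0.249). The deepest libraries were C replicates 2 and 3 and US + D replicate 3. On the first principal component (40.6% of the variance), C replicate 3 and US + D replicate 2 lay farthest apart. Gene descriptions were at hand for 1191 of the tested genes. They come from the study's supplementary lists, which were for the most part drawn from these same libraries. The labelled tissue was not checked, since no described gene matched the leaf markers chosen (the small subunit of Rubisco and chlorophyll a/b binding proteins). In whole leaves, fewer cells of a type and less RNA per cell cannot be told apart.

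With edgeR, 32 genes were differentially expressed (DEGs; adjusted p under 0.05 and log2 fold change beyond 0.58), which is 0.144% of the tested genes. Of these, 24 were up-regulated (0.108%) and 8 were down-regulated (0.0361%). This split depended on single libraries and on the tool, with 33 up- and 32 down-regulated without C replicate 3 and 114 and 107 with limma voom. The rises ran from 0.71 to 3.80 on the log2 scale (median 1.68), and 20 of them exceeded 2-fold. The falls ran from -5.24 to -0.90 (median -1.50), and 7 of them exceeded 2-fold. At an unadjusted p under 0.05 there were 1057 higher and 818 lower genes, 4.77% and 3.69% of those tested and 8.46% together. The CPM values (counts scaled to a common library size) of the 6 ultrasound libraries lay all above or all below those of the 6 others in 29 of the 32 DEGs, against 0.794% of all tested genes. In 22 of them they lay above (0.515% of all tested genes) and in 7 below (0.280%). The F-box gene of chromosome 7 is among these 7, but its separation is not resolved, since a count of 0 allows up to 0.0877 CPM in US + D replicate 2 and C replicate 3 had 0.0759 CPM. The choice of the DEGs by the difference between these same libraries favours such separation, which is given as a description. None of the 32 genes overlaps another gene of the annotation, and all 32 carry a description.

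**Figure D1:**
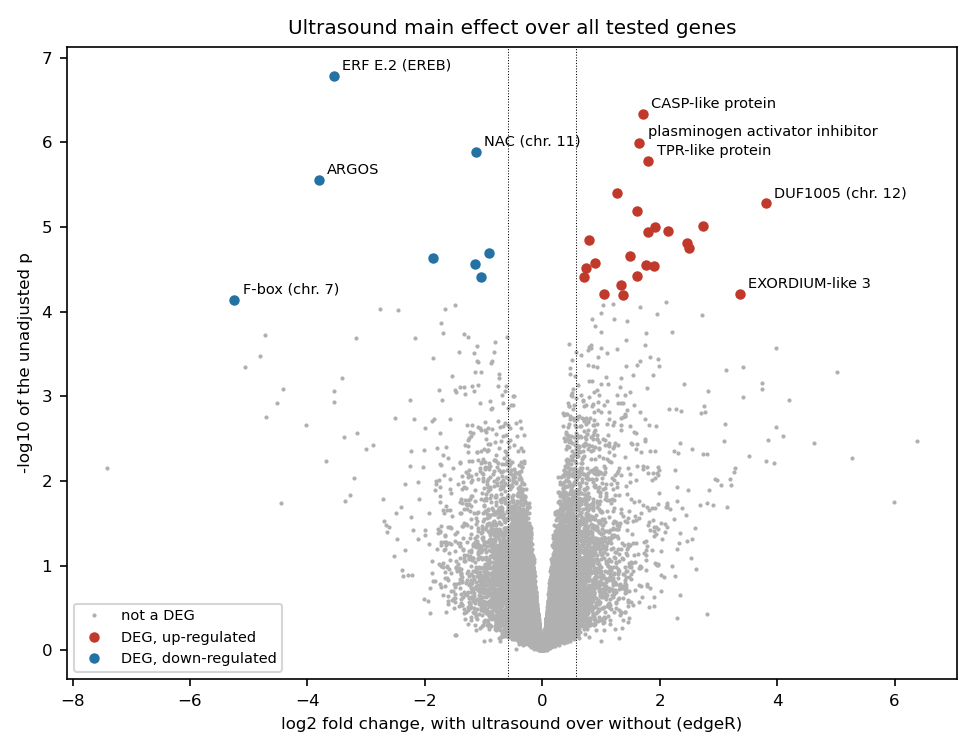
Log2 fold change of the ultrasound main effect (x axis, 6 libraries with ultrasound over 6 without, edgeR) against the -log10 of its unadjusted p (y axis) for the 22157 tested genes, with the 24 up-regulated DEGs in red, the 8 down-regulated DEGs in blue and dotted lines at a log2 fold change of 0.58 in either direction. The ethylene responsive factor E.2 has the smallest p, and the F-box gene on chromosome 7 (-5.24) and a DUF1005 gene on chromosome 12 (3.80) have the largest fall and rise among the DEGs.

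The down-regulated DEGs are given first. They and the up-regulated ones are ordered by their descriptions, an order made after the values were seen and with no test of any such group. The gene with the smallest p of all was the ethylene responsive factor E.2, the study's EREB (Solyc09g089930.3.1, SL4.0 chromosome 9, 65643193 to 65643915, + strand), of the AP2/ERF family. It had 4.04, 2.03 and 2.29 CPM in US and 1.14, 0.292 and 0.738 CPM in US + D, against 28.1, 18.8 and 32.1 CPM in C and 12.8, 10.6 and 8.96 CPM in D. Every ultrasound library lay below every library without ultrasound, and the lowest values were those of US + D. The log2 fold change was -3.55 (standard error, SE, 0.32, edgeR adjusted p = 0.00363). Drought had a log2 fold change of -1.59 for this gene, with an unadjusted edgeR p of 0.000219 and an edgeR adjusted p of 0.656. Every D library lay below every C library, and every US + D library below every US library.

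A second ethylene factor, ethylene-responsive factor 1 (Solyc05g051200.1.1), had between 9.23 and 19.7 CPM with ultrasound (median 13.1) and between 23.3 and 47.5 CPM without (median 25.8). Its log2 fold change was -1.14 (SE 0.17, edgeR adjusted p = 0.0275). Both DEGs of the NAC family were down-regulated as well. Solyc11g017470.2.1 (chromosome 11, 8518920 to 8520455, - strand) had 50.8, 43.7 and 42.9 CPM in US and 40.8, 29.7 and 37.3 CPM in US + D, against 103, 78.9 and 122 CPM in C and 79.5, 70.8 and 83.9 CPM in D. Its log2 fold change was -1.13 (SE 0.13, edgeR adjusted p = 0.00722). Solyc06g060230.3.1 had between 23.1 and 36.9 CPM with ultrasound (median 28.4) and between 43.4 and 71.3 CPM without (median 51.5), with a log2 fold change of -0.90 (edgeR adjusted p = 0.0261). Of 5 tested genes described as NAC domain proteins, these were the 2 DEGs. The others lay on both sides, with log2 fold changes of -1.11 (Solyc02g084350.3.1), 1.38 (Solyc07g066330.3.1) and 0.65 (Solyc08g006020.4.1). An AT-hook motif nuclear-localized protein (Solyc05g053000.1.1), of a family that binds AT-rich DNA, had between 2.63 and 5.00 CPM with ultrasound and between 6.43 and 8.13 CPM without, with a log2 fold change of -1.04 (edgeR adjusted p = 0.0322).

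The other down-regulated DEGs were ARGOS, an acyltransferase and an F-box gene. ARGOS, an auxin-regulated gene that promotes organ growth in Arabidopsis (Solyc12g096570.1.1, chromosome 12, 64948133 to 64948489, - strand), had 0.685, 0.636 and 0.565 CPM in US and 0.434, 0.175 and 0.0352 CPM in US + D, against 6.80, 5.60 and 8.72 CPM in C and 4.28, 4.43 and 2.43 CPM in D. The groups did not overlap, and the lowest library was US + D replicate 3, with 3 counts. Its log2 fold change was -3.81 (SE 0.46, edgeR adjusted p = 0.0104). The HXXXD-type acyltransferase (Solyc05g052670.1.1), of a family that transfers acyl groups to plant metabolites, had between 1.07 and 4.24 CPM with ultrasound (median 2.84) and between 4.13 and 20.6 CPM without (median 6.63). Here D replicate 1 lay below the highest US library, and the log2 fold change was -1.86 (edgeR adjusted p = 0.0270). The F-box gene on chromosome 7 (Solyc07g044920.1.1) had 2, 0 and 0 counts in US and 0, 0 and 4 in US + D, against 30, 51 and 8 counts in C and 68, 21 and 66 in D. Its log2 fold change of -5.24 (SE 0.88) rests on 6 counts with ultrasound beside 244 without, and its edgeR adjusted p of 0.04995 is just under the threshold.

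**Figure D2:**
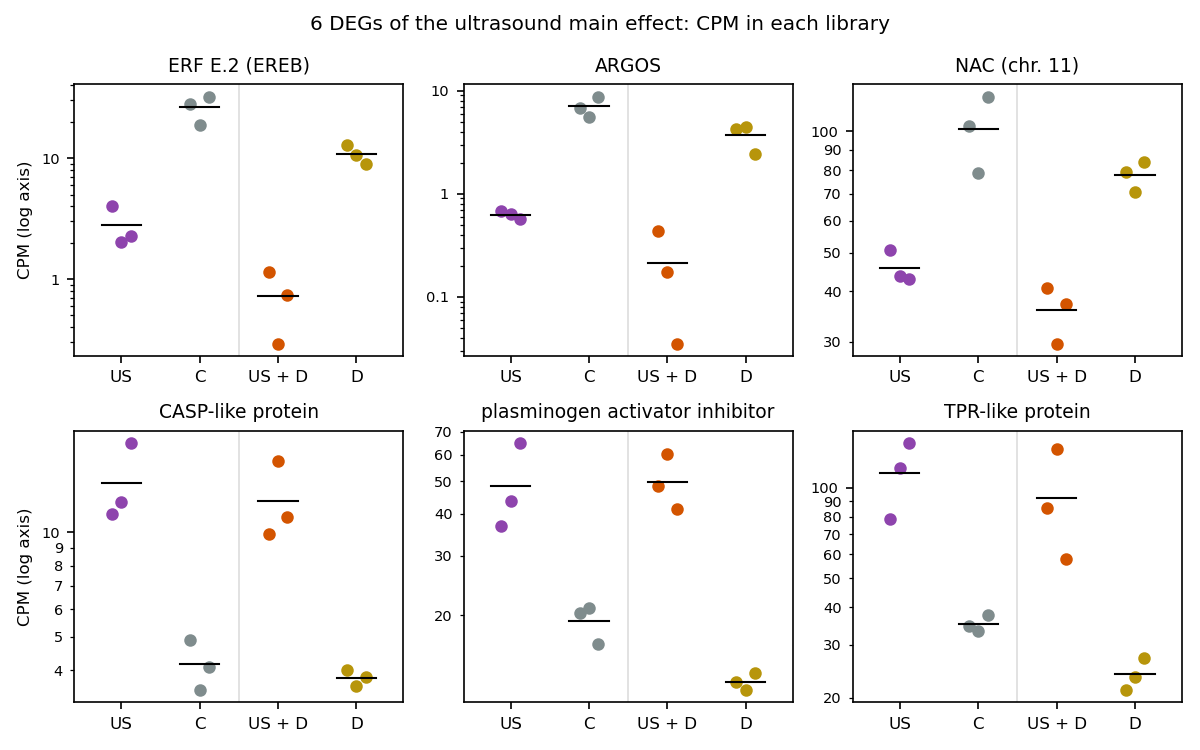
CPM on a log axis of the 6 genes that were DEGs in every fit with 1 library left out, in the 3 libraries of US, C, US + D and D (points) with the group mean (bars). In the upper row (EREB, ARGOS and the NAC gene of chromosome 11) all ultrasound libraries lie below the others, with at most 4.04, 0.685 and 50.8 CPM, and in the lower row (CASP-like protein, plasminogen activator inhibitor and TPR-like protein) all lie above, with at least 9.86, 36.9 and 57.8 CPM.

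Of the up-regulated DEGs, a CASP-like protein had the smallest p (Solyc10g076300.2.1, chromosome 10, 58319369 to 58320812, - strand). CASP-like proteins are small membrane proteins related to those that scaffold the Casparian strip in roots. The gene had 11.3, 12.2 and 18.0 CPM in US and 9.86, 16.0 and 11 CPM in US + D, against 4.89, 3.51 and 4.09 CPM in C and 4, 3.62 and 3.83 CPM in D. Its log2 fold change was 1.71 (SE 0.17, edgeR adjusted p = 0.00515). Of 6 tested genes described as CASP-like, looked up after these values were seen, 5 had a positive log2 fold change and 2 had an unadjusted p under 0.05. Of all 1191 described genes tested, 406 were higher and 260 lower at that p, so these counts do not set the family apart. Solyc10g076300.2.1 was the only DEG of the 6. A gene described as a plasminogen activator inhibitor (Solyc01g103200.4.1, chromosome 1, 84133393 to 84134202, + strand) had 36.9, 43.6 and 64.8 CPM in US and 48.2, 60.0 and 41.3 CPM in US + D, against 20.2, 21.0 and 16.4 CPM in C and 12.6, 12 and 13.5 CPM in D. Its log2 fold change was 1.65 (SE 0.18, edgeR adjusted p = 0.00722). A tetratricopeptide repeat (TPR)-like gene (Solyc03g114320.4.1, chromosome 3, 58753067 to 58756530, + strand), a repeat that binds other proteins, had 78.8, 116 and 140 CPM in US and 85.8, 134 and 57.8 CPM in US + D, against 34.6, 33.4 and 37.7 CPM in C and 21.2, 23.5 and 27.2 CPM in D. Its log2 fold change was 1.81 (SE 0.21, edgeR adjusted p = 0.00738). In each of these 3 genes every ultrasound library lay above every library without ultrasound.

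The 12 smallest p among the lower genes also include genes just above the threshold. The MAP kinase kinase kinase 59 (Solyc07g064820.1.1), of a family that opens phosphorylation cascades, had between 1.39 and 2.23 CPM with ultrasound (median 1.73) and between 2.45 and 6.62 CPM without (median 5.54). Its libraries did not overlap, with a log2 fold change of -1.49 (edgeR adjusted p = 0.0520). OBP3-responsive protein 1 (Solyc03g083420.4.1) had between 38.8 and 97.9 CPM with ultrasound (median 55.0) and between 92.8 and 618 CPM without (median 506). Only C replicate 3 fell within the ultrasound values, and the log2 fold change was -2.76 (edgeR adjusted p = 0.0534). A hypothetical protein (Solyc06g049020.1.1) had between 7.69 and 32.4 CPM with ultrasound and between 44.9 and 166 CPM without, with a log2 fold change of -2.45 (edgeR adjusted p = 0.0536).

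A pair of genes with a domain of unknown function, DUF1005, were among the largest rises. Solyc12g008600.2.1 had between 5.38 and 27.9 CPM with ultrasound (median 16.2) and between 0.697 and 2.02 CPM without (median 1.14), with a log2 fold change of 3.80 (SE 0.48, edgeR adjusted p = 0.0146). Solyc01g106690.3.1 had between 63.7 and 372 CPM with ultrasound (median 207) and between 35.1 and 55.4 CPM without (median 44.4), with a log2 fold change of 2.15 (SE 0.30, edgeR adjusted p = 0.0198). The other 2 described DUF1005 genes, looked up after these values were seen, were not DEGs. Their log2 fold changes were 1.03 (Solyc01g081440.3.1, unadjusted p = 0.0123) and 2.48 (Solyc04g077140.3.1, unadjusted p = 0.0127).

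The cell wall and growth group held several of the higher values. EXORDIUM-like 3 (Solyc10g074540.1.1, chromosome 10, 57114676 to 57115710, - strand), of a wall protein family tied to brassinosteroid-driven growth in Arabidopsis, had 53.0, 73.8 and 119 CPM in US and 67.4, 110 and 20.9 CPM in US + D, against 5.72, 21.1 and 2.44 CPM in C and 3.61, 4.57 and 7.35 CPM in D. C replicate 2 lay just above US + D replicate 3, and all other libraries were apart. The log2 fold change was 3.37 (SE 0.56, edgeR adjusted p = 0.0457). The endo-beta-glucanase Cel3 (Solyc01g102580.3.1), of an enzyme family that cuts wall glucans, had between 132 and 304 CPM with ultrasound (median 184) and between 54.7 and 106 CPM without (median 73.6), with a log2 fold change of 1.37 (edgeR adjusted p = 0.0457). A SAUR gene (Solyc07g042490.1.1), of the small auxin-up RNAs, had between 9.33 and 28.4 CPM with ultrasound (median 19.0) and between 3.66 and 8.84 CPM without (median 5.15), with a log2 fold change of 1.77 (edgeR adjusted p = 0.0275). The expansin-like gene Solyc01g112000.4.1 had between 77.6 and 217 CPM with ultrasound and between 14.6 and 62.1 CPM without. Its libraries did not overlap, but its edgeR adjusted p was 0.0516 (log2 fold change 2.1, SE 0.36), so it is no DEG.

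Receptor kinases and several other signalling or membrane-related proteins follow. The receptor-like kinase TMK4 (Solyc12g098570.2.1), of a family that acts in auxin signalling in Arabidopsis, had between 28.4 and 68.5 CPM with ultrasound (median 47.3) and between 12.1 and 18.0 CPM without (median 16.1), with a log2 fold change of 1.61 (edgeR adjusted p = 0.0161). A leucine-rich repeat receptor kinase (Solyc01g107670.2.1) had between 43.0 and 78.2 CPM with ultrasound and between 25 and 43.8 CPM without, with a log2 fold change of 0.90 (edgeR adjusted p = 0.0275). Its groups overlapped by C replicate 3 only. An inositol triphosphate 5-phosphatase (Solyc08g077210.4.1), of the enzymes that remove the second messenger inositol triphosphate, had between 121 and 399 CPM with ultrasound (median 173) and between 22.1 and 65.0 CPM without (median 38.0), with a log2 fold change of 2.49 (edgeR adjusted p = 0.0245). A member of the MOB kinase activator family (Solyc07g041730.4.1) had between 8.61 and 40.4 CPM with ultrasound (median 19.1) and between 2.88 and 4.67 CPM without (median 4.10), with a log2 fold change of 2.47 (edgeR adjusted p = 0.0229). Patellin-1, a phosphoinositide-binding protein in Arabidopsis (Solyc11g051160.2.1, 1.04), a SNARE associated Golgi protein (Solyc08g079670.3.1, 0.79), an ENHANCED DISEASE RESISTANCE 2-like protein (Solyc08g006590.2.1, 1.80) and a major facilitator superfamily transporter (Solyc04g079520.3.1, 1.34) had the log2 fold changes given beside them, with edgeR adjusted p between 0.0198 and 0.0457. In each of these 4 genes all ultrasound libraries lay above all the others.

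A further set of up-regulated DEGs is described as nuclear or zinc finger proteins. OBERON, whose Arabidopsis relatives carry a plant homeodomain finger and are needed for meristems, is encoded by Solyc04g008220.4.1 (chromosome 4, 1928018 to 1931555, + strand). It had between 14.6 and 60.7 CPM with ultrasound (median 24.2) and between 3.85 and 5.73 CPM without (median 4.87), with a log2 fold change of 2.73 (SE 0.37, edgeR adjusted p = 0.0198). Its neighbour ETAG-A3 (Solyc04g008210.2.1) lies 791 bases away on the same strand and had between 70.7 and 181 CPM with ultrasound and between 14.0 and 41.6 CPM without, with a log2 fold change of 1.90 (edgeR adjusted p = 0.0275). They were the only DEGs next to each other, among 49 tested neighbours of DEGs. Whether reads run on from ETAG-A3 into OBERON was not tested. Zinc finger protein 8 (Solyc05g009180.1.1, 1.93), the Dof zinc finger protein PBF (Solyc06g150130.1.1, 0.75) and a B-box zinc finger protein (Solyc07g062160.3.1, 0.71) were the other DEGs of this kind, with edgeR adjusted p between 0.0198 and 0.0322. For the B-box gene the values were tight, between 46.2 and 53.8 CPM with ultrasound and between 24.1 and 35.4 CPM without. The remaining up-regulated DEGs were the F-box protein PP2-A15 (Solyc08g080360.3.1, 1.27), a sterol 22-desaturase, which makes stigmasterol (Solyc02g070580.1.1, 1.60), and an S-adenosyl-L-methionine-dependent methyltransferase (Solyc03g111620.1.1, 1.49), with edgeR adjusted p between 0.0125 and 0.0322.

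The ultrasound effect in each condition, US vs. C and US + D vs. D, was taken from 1 model of the 4 groups. The 2 effects share no library, but they share the scaling and the estimate of the spread. In the 24 up-regulated DEGs the log2 fold changes ran from 0.69 to 3.6 without drought (median 1.59) and from 0.63 to 4.02 with drought (median 1.73). In the 8 down-regulated DEGs they ran from -4.40 to -0.70 without drought (median -1.41) and from -5.77 to -1.04 with drought (median -1.72). All 32 had the same direction and an unadjusted p under 0.05 in both conditions, which the choice of genes by the average of both favours and which is given as a description. EREB had log2 fold changes of -3.24 in US vs. C and -3.89 in US + D vs. D (SEs 0.44 and 0.46). The CASP-like protein had 1.73 and 1.69 in the same comparisons (SE 0.25 each).

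Whether the effect differed between the conditions was tested for each gene by the interaction. Of all tested genes, 0 had an edgeR adjusted p under 0.05 in it, while 1422 (6.42%) had an unadjusted p under 0.05. Among the DEGs the AT-hook gene was the only one under 0.05, with log2 fold changes of -1.38 with drought and -0.70 without (interaction -0.68, SE 0.26, unadjusted p = 0.0229, edgeR adjusted p = 0.720). The plasminogen activator inhibitor came next, with 1.97 with drought and 1.33 without (unadjusted p = 0.0609). A p above the threshold does not show that the effects were alike. Drought itself had an unadjusted p under 0.05 in 9 of the 32 DEGs (6.91% of all tested genes) and an edgeR adjusted p under 0.05 in 0 of them.

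**Figure D3:**
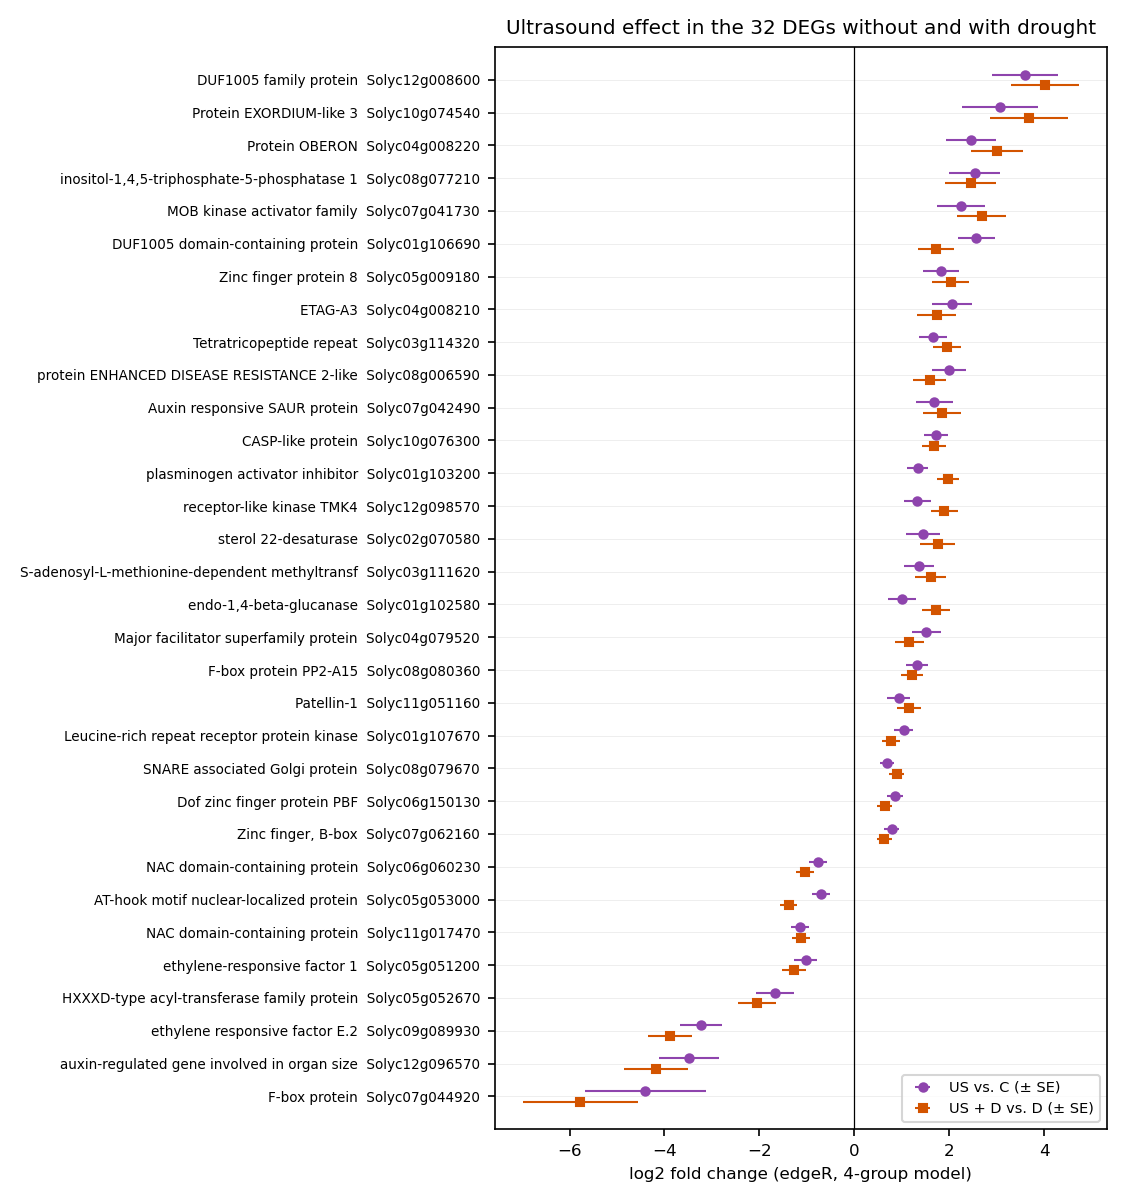
Log2 fold changes (x axis, edgeR model of the 4 groups) of the 32 DEGs in US vs. C (purple circles) and US + D vs. D (orange squares), with bars of 1 standard error, ordered by the main effect. In every row both points lie on the same side of 0, from 3.6 and 4.02 for the DUF1005 gene of chromosome 12 to -4.40 and -5.77 for the F-box gene of chromosome 7.

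Over all tested genes the directions of the 2 effects matched in 50.3%. The share was higher for genes with a smaller p. Of 22157 tested genes, 850 had an unadjusted p under 0.05 in US vs. C, and 68.1% of these had the same direction in US + D vs. D. In US + D vs. D, 2792 of 22157 had an unadjusted p under 0.05, and 59.7% of these had the same direction in US vs. C. Of the 43 genes with p under 0.001 in US vs. C, 39 had the same direction in US + D vs. D, and 28 of these also had p under 0.05 there. Read the other way, 146 of the 194 genes with p under 0.001 in US + D vs. D had the same direction in US vs. C. In all, 263 genes (1.19%) had an unadjusted p under 0.05 in both conditions with the same sign and 51 with opposite signs.

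**Figure D4:**
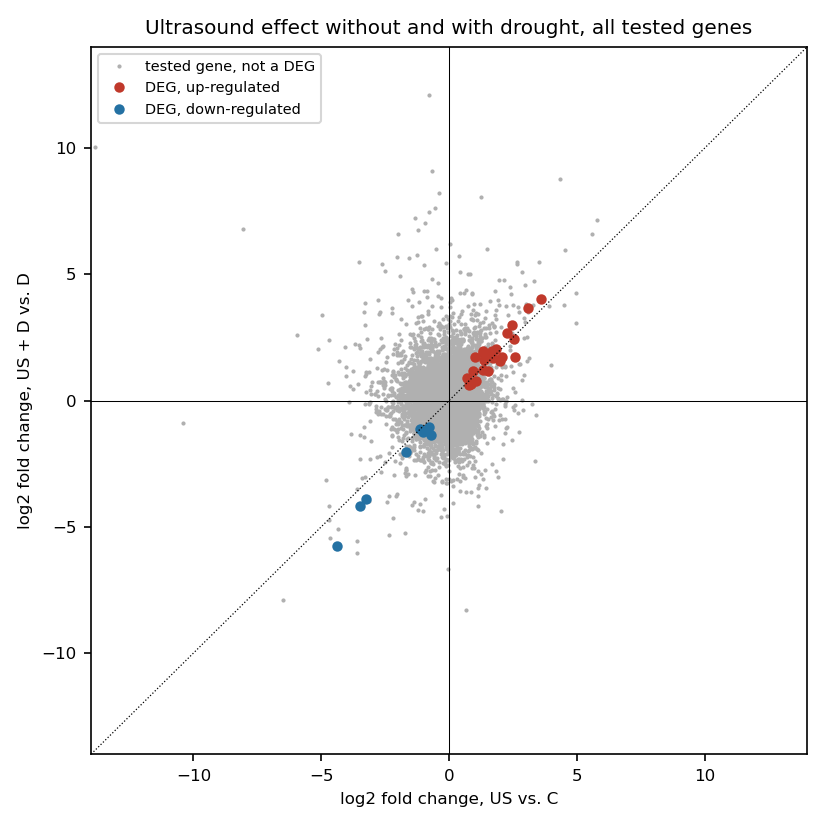
Log2 fold change of every tested gene in US vs. C (x axis) and in US + D vs. D (y axis), with the up-regulated DEGs of the main effect in red, the down-regulated DEGs in blue and a dotted line where both are equal. The grey cloud fills all 4 quadrants (50.3% of the genes have the same sign), while the 32 DEGs lie along the line.

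The described genes were grouped into lists by words in their descriptions. Since most descriptions belong to genes that the study had called in these libraries, the lists are not independent evidence, and their counts are to be read beside all 1191 described genes. Of these, 406 were higher and 260 lower at an unadjusted p under 0.05, with a median log2 fold change of 0.24, against -0.0045 over all tested genes. All 32 DEGs are among them, which is 2.69% of the described genes.

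The cell wall list had 17 tested genes, 1 of them a DEG (EXORDIUM-like 3). At an unadjusted p under 0.05, 9 were higher and 2 lower, and the median log2 fold change was 0.85. All 3 described EXORDIUM genes were among the 9, with 3.37, 2.76 (Solyc04g074410.2.1) and 1.11 (Solyc03g083560.1.1). The xyloglucan endotransglycosylase Solyc09g092520.3.1, of the enzymes that recut and rejoin wall xyloglucan, had between 13.3 and 131 CPM with ultrasound (median 31.6) and between 3.12 and 15.1 CPM without (median 4.48). Its log2 fold change was 3.12 (SE 0.66, edgeR adjusted p = 0.112). The 2 described cellulose synthases had 0.85 and 3.42, while 2 xyloglucan endotransglucosylases were lower, by -0.85 and -0.46, and expansin 1 had -0.09.

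The wound defence list had the highest median of all lists, 1.99 over 15 tested genes, and no DEG. Of its genes, 12 were higher and 0 lower at an unadjusted p under 0.05. Proteinase inhibitors block the digestive enzymes of insects and are textbook wound markers of tomato leaves. The protease inhibitor Solyc09g084450.3.1 had 22.3, 36.1 and 119 CPM in US and 11.6, 619 and 222 CPM in US + D, against 6.27, 19.8 and 4.69 CPM in C and 13.8, 36.9 and 59.8 CPM in D. The highest and the lowest ultrasound values were both in US + D, and the log2 fold change was 2.74 (SE 0.79, edgeR adjusted p = 0.257). The proteinase inhibitor Solyc09g089540.4.1 (4.11) and the metallocarboxypeptidase inhibitor Solyc07g007250.4.1 (1.53) had the smallest p of the list, with edgeR adjusted p of 0.220 and 0.237. In 0 of the 15 genes were the ultrasound libraries all above the others. Without US + D replicate 2, 5 of the 15 were higher at an unadjusted p under 0.05 and the median was 1.42, a setting chosen after the values were seen. How the counting treated reads that match several members of such a family is not given in the sources used here. In the jasmonate list, the hormone pathway behind these inhibitors, a jasmonate ZIM domain gene (Solyc08g036620.4.1), a repressor of the pathway, had 0, 0 and 2.29 CPM in US and 0.813, 2.02 and 0.199 CPM in US + D, against 0, 0 and 0.0949 CPM in C and 0 CPM in each D library. The groups overlapped, and the edgeR adjusted p was 0.274. Allene oxide synthase had a log2 fold change of 0.27 and lipoxygenase (Solyc09g055900.4.1) of -0.40.

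The ethylene list leaned the other way. Of 11 tested genes, 2 were down-regulated DEGs (EREB and ethylene-responsive factor 1), and 8 were lower and 2 higher at an unadjusted p under 0.05, with a median log2 fold change of -0.98. Both listed ethylene receptors were among the lower ones, ETR5 (Solyc11g006180.2.1, -0.87, edgeR adjusted p = 0.103) and ETR4 (Solyc06g053710.3.1, -0.56, edgeR adjusted p = 0.199). ETR5 had between 11.1 and 29.9 CPM with ultrasound and between 29.8 and 42.2 CPM without. The 2 higher members were Ethylene Response Factor H.1 (2.83) and the factor Solyc08g082210.4.1 (1.02). Without C replicate 3 and US + D replicate 2, without C replicates 2 and 3, and without US + D replicate 2, settings chosen after the values were seen, the list likewise had 8 lower and 2 higher genes. Its down-regulated DEGs numbered 3, 2 and 1 in these settings, and ethylene-responsive factor 1 was a DEG in 2 of the 12 fits with 1 library left out.

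**Figure D5:**
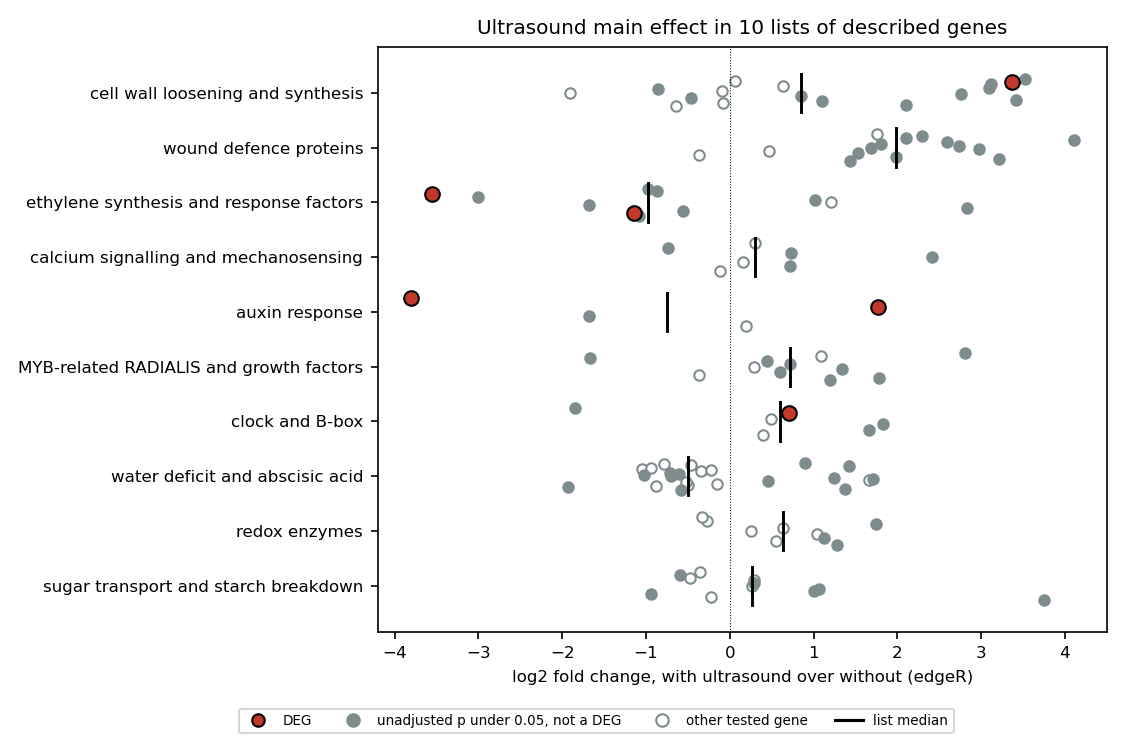
Log2 fold change of the ultrasound main effect (x axis, with ultrasound over without, edgeR) of each tested gene in 10 lists of described genes, with DEGs as large red points, other genes with an unadjusted p under 0.05 as filled grey points, the rest as open points and the list median as a bar. The wound defence list lies mostly to the right (median 1.99) and the ethylene list mostly to the left (-0.98), while the water deficit list spreads to both sides (-0.50).

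Calcium and channel genes had no DEG among 7 tested. A calcium-dependent protein kinase (Solyc10g079755.1.1) had between 80.7 and 115 CPM with ultrasound and between 117 and 220 CPM without, so that the groups did not overlap (log2 fold change -0.74, edgeR adjusted p = 0.119). Cyclic nucleotide-gated channels, which let calcium into the cell, had positive values in all 4 listed genes, and 3 of these had an unadjusted p under 0.05. The gene Solyc02g088560.4.1 had a log2 fold change of 0.72, made of 0.10 in US vs. C and 1.34 in US + D vs. D (interaction unadjusted p = 0.00739, edgeR adjusted p = 0.685). The highest was channel 15 (Solyc09g007840.3.1), with a log2 fold change of 2.41 (edgeR adjusted p = 0.137). The calmodulin-like gene had -0.12.

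The auxin list held 2 DEGs of opposite direction among 4 tested genes, the SAUR gene (1.77) and ARGOS (-3.81). SAUR20 (Solyc03g033590.1.1) had -1.69 (edgeR adjusted p = 0.0758). The list of growth factors had 0 DEGs among 11 genes, with 7 higher and 1 lower at an unadjusted p under 0.05 and a median of 0.72. Its lower member was gibberellin 2-oxidase 2 (Solyc07g056670.3.1), an enzyme that inactivates gibberellins, with between 0.832 and 2.99 CPM with ultrasound and between 2.79 and 6.74 CPM without (log2 fold change -1.66, edgeR adjusted p = 0.0534). Growth-regulating factor 8 (Solyc04g077510.4.1) had 1.34 and the TCP factor 23 (Solyc05g007420.2.1) had 0.72, both with an edgeR adjusted p above 0.1.

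The water deficit and abscisic acid list, with 23 tested genes, had members on both sides. It had 0 DEGs, 6 genes higher and 6 lower at an unadjusted p under 0.05, and a median of -0.50. The abscisic acid receptor PYL5 (Solyc10g085310.1.1) had 1.42 (edgeR adjusted p = 0.0804) and the protein phosphatases 2C Solyc08g062640.3.1 and Solyc01g100110.4.1 had -0.60 and 1.38 (edgeR adjusted p = 0.0775 and 0.160). Oleosins and late embryogenesis proteins, abundant in seeds, were below 0 in all but 1 gene. That gene, Solyc04g078750.3.1 (1.71), had the smallest unadjusted edgeR p of them, 0.0067. Of the lower ones, Solyc08g066040.1.1 (-0.71), Solyc07g053360.4.1 (-1.03) and Solyc02g077970.4.1 (-1.94) had an unadjusted p under 0.05, and the rest did not. The 7 seed marker genes held 0 DEGs, and their summed level ran from 40.6 to 244 CPM with ultrasound and from 32.5 to 425 CPM without. Of the 6 ripe fruit markers 4 were tested, with 0 DEGs, and all 6 had summed levels from 125 to 172 CPM with ultrasound and from 146 to 238 CPM without, and the 1 pollen marker was not tested, with at most 0.0595 CPM with ultrasound and 0.187 CPM without. The part of these cell types in the results was not tested. The lists of heat shock proteins (5 tested genes), redox enzymes (9), pathogenesis-related proteins (5), sugar transport and starch breakdown (11), RNA-directed DNA methylation (3) and light harvesting (1) held 0 DEGs. The listed members with the smallest p had log2 fold changes of 1.4 and -1.52 among heat shock proteins (Solyc07g055720.4.1 and Solyc03g123540.3.1). In the redox list they were 1.75 and 1.29 for glutathione S-transferases (Solyc06g075520.3.1 and Solyc02g081340.3.1) and 1.12 for a peroxidase (Solyc04g071890.3.1). Among pathogenesis-related proteins they were -0.41, 0.63 and -1.57 (Solyc07g008730.2.1, Solyc04g081550.3.1 and Solyc07g006700.1.1). In the sugar list they were 1.0 and -0.59 for trehalose-6-phosphate synthases (Solyc02g072150.3.1 and Solyc10g046770.3.1) and 3.74 for an invertase/pectin methylesterase inhibitor (Solyc01g059940.2.1). A DNA methyltransferase (Solyc04g005250.4.1) had -0.80, made of -0.14 in US vs. C and -1.46 in US + D vs. D. A photosystem II protein (Solyc01g008510.3.1) had -1.74, made of -0.27 and -3.22 in the same comparisons (interaction unadjusted p = 0.00170, edgeR adjusted p = 0.547). None of these genes had an edgeR adjusted p under 0.1 in the main effect. Of the redox enzymes, 3 were higher at an unadjusted p under 0.05, and 7 were without C replicate 3 and US + D replicate 2, a setting chosen after the values were seen. Of the 6 clock and B-box genes, 1 was a DEG, 3 were higher and 1 was lower at an unadjusted p under 0.05. CONSTANS-LIKE 7 (Solyc05g009310.3.1) had between 12.6 and 42.0 CPM with ultrasound and between 2.61 and 8.43 CPM without (1.83, edgeR adjusted p = 0.0970).

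Chlorophyllase (CHL, Solyc09g065620.3.1), which removes the phytol tail of chlorophyll, had 31.9, 13.5 and 40.2 CPM in US and 30.5, 36.9 and 25.8 CPM in US + D, against 10.5, 8.68 and 5.17 CPM in C and 31.8, 28.9 and 42.5 CPM in D. The C libraries lay below every other library, and the D libraries overlapped those of both ultrasound groups, with D replicate 3 the highest of all. Its main effect was 0.83 (SE 0.40, edgeR adjusted p = 0.621), made of 1.82 in US vs. C and -0.15 in US + D vs. D (interaction unadjusted p = 0.00368, edgeR adjusted p = 0.673).

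The number of DEGs depended on single libraries and on the tool. When 1 library was left out, edgeR gave 65, 56, 22, 18, 17, 15, 11, 10, 8, 7, 7 and 6 DEGs, without C replicate 3, US replicate 1, US + D replicate 3, US + D replicate 2, US replicate 2, C replicate 1, US replicate 3, C replicate 2, US + D replicate 1, D replicate 3, D replicate 1 and D replicate 2. Of the 32 genes, 6 were DEGs in all 12 of these fits: EREB, the CASP-like protein, the plasminogen activator inhibitor, the NAC gene of chromosome 11, the TPR-like gene and ARGOS. Their highest edgeR adjusted p in these fits ran from 0.0177 for EREB to 0.0428 for ARGOS. PP2-A15 and the DUF1005 gene of chromosome 12 were DEGs in 9 fits each. The transporter Solyc04g079520.3.1 was a DEG in 0, with edgeR adjusted p between 0.0515 and 0.135. With DESeq2 there were 383 DEGs (242 up- and 141 down-regulated, 1.78% of its tested genes), which included all 32. In its 12 fits with 1 library left out, 167 genes were DEGs each time, again including all 32. Fitted without the other 6 libraries, US against C alone and US + D against D alone each gave 0 DEGs with edgeR. The unadjusted p was under 0.05 in 501 of 21525 tested genes for US against C. For US + D against D it was under 0.05 in 3165 of 21254. The model of the 4 groups takes the spread from all 12 libraries. In it, EREB, the CASP-like protein, the plasminogen activator inhibitor and the TPR-like gene had an edgeR adjusted p of 0.0487 in US + D vs. D. The NAC gene of chromosome 11 and ARGOS had 0.0578 there. In US vs. C the edgeR adjusted p of these 6 genes ran from 0.197 to 0.320.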

How the data were processed

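Leaf RNA was sequenced as poly-A selected, paired-end libraries. The authors used fastp for trimming, HISAT2 for alignment to genome SL4.0 and FeatureCounts for counting per mRNA of the ITAG4.0 annotation. The deposited values are raw read counts, not normalized. The listed gene length equals the whole span in every row, introns included. Strand and multi-mapping settings are not given in the sources used here, so that reads of overlapping or near-identical genes could be shared or lost, and 795 of the tested genes overlap another.

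Counts were tested with edgeR 4.0.16 (R 4.3.3, limma 3.58.1): filterByExpr over the 4 groups, TMM scaling, a quasi-likelihood fit with ultrasound and drought as terms, and Benjamini-Hochberg adjusted p over all 22157 genes. Standard errors were approximated from the fold change and its F value. The DEG threshold was 0.05 for the adjusted p and 0.58 for the absolute log2 fold change. CPM values used the TMM-scaled totals. Separate effects and the interaction came from a model of the 4 groups. A library's 3 counts correspond to 0.0275 to 0.0877 CPM, the level that a count of 0 allows, for counting error only. The scripts were tested on simulated data. Alternatives were DESeq2 1.42.0, limma voom with quality weights, other scaling, filters and terms, a replicate block, thinned counts, and libraries left out.

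Genes were named by a rule: the 12 smallest p in each direction, the 3 largest rises and falls among DEGs, the study's target genes chosen for ultrasound or for every treatment, and up to 3 genes of each list. The remaining DEGs and further list members were named after their values were seen. The comparison, the lists and the markers were chosen with earlier results of these data known. Descriptions came from the study's supplementary lists. Promoter and protein sequences were not analysed here. Sample titles number the libraries as replicates, and the paper calls them biological replicates. The tests set the difference between groups against the spread between libraries, which edgeR moderates across genes.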

Additional observations from a re-analysis of the deposited data

Results flagged for a closer look

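Among 142 sets of 6 values (named genes and library measures, with or without ultrasound), 12 had a highest or lowest value far from the other 5 by Dixon's test. For values of a single normal distribution, chance alone gives this in about 1 of 20 sets. The CPM values were not log-transformed and each set mixes libraries with and without drought, so that rate need not hold here. US + D replicate 3 had 87164190 counts, with the next ultrasound library at 42940503. With ultrasound, US replicate 2 was highest for CONSTANS-LIKE 7 (Solyc05g009310.3.1, 42.0 CPM, next 17.7), a peroxidase (Solyc04g071890.3.1, 121 CPM, next 60.4) and allene oxide synthase (Solyc11g069800.1.1, 57.9 CPM, next 41.4). US replicate 3 was highest for B-box zinc finger protein 24 (Solyc04g081020.3.1, 7.32 CPM, next 3.74). US + D replicate 2 was highest for the protease inhibitor Solyc09g084450.3.1 (619 CPM, next 222), and US + D replicate 3 for an invertase/pectin methylesterase inhibitor (Solyc01g059940.2.1, 1.24 CPM, next 0.508). Without ultrasound, C replicate 2 was highest for EXORDIUM-like 3 (Solyc10g074540.1.1, 21.1 CPM, next 7.35) and a xyloglucan endotransglycosylase (Solyc09g092520.3.1, 15.1 CPM, next 5.26). C replicate 3 was highest for a glutathione S-transferase (Solyc02g081340.3.1, 49.3 CPM, next 16.4) and for jasmonate ZIM domain protein f (Solyc08g036620.4.1, 0.0949 CPM, the others at 0), and lowest for SAUR20 (Solyc03g033590.1.1, 2.97 CPM, next 10.0).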

How the results depend on the processing

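Against 32 DEGs, DESeq2 gave 383 and limma voom 221, and edgeR gave 0 with only the libraries without drought and 0 with only those with drought, each with 6 libraries. Without 1 library, edgeR gave 6 to 65 DEGs and DESeq2 207 to 634. Without C replicate 3 and US + D replicate 2 there were 73 (38 up- and 35 down-regulated, 28 of the 32 among them), and without C replicates 2 and 3 there were 30 (14 up- and 16 down-regulated, 15 of the 32), both chosen after seeing the data. Other scaling, filters, terms and thinning gave 29 to 39. Whether replicate numbers pair the samples was not tested. Correlations of deviations from the group means ran from -0.40 to 0.75 in 18 same-numbered pairs (median 0.066, 9 above 0.1). In 36 other pairs they ran from -0.64 to 0.55 (median -0.016, 12 above 0.1), and the pairs are not independent. A fit with a replicate block gave 31 DEGs, 25 of the 32 among them. For the DEGs, 514 of 830 single-gene values stayed past the threshold, 316 did not and 0 reversed. Chlorophyllase (Solyc09g065620.3.1) reversed in the libraries with drought alone, with a log2 fold change of -0.14. The cause of these differences was not tested. Low counts limit the F-box gene of chromosome 7 and ARGOS. They also limit other named genes with large values, by their counts per library without ultrasound. These are the invertase/pectin methylesterase inhibitor Solyc01g059940.2.1 (0 to 7), the jasmonate ZIM domain gene Solyc08g036620.4.1 (0 to 10) and channel 15, Solyc09g007840.3.1 (8 to 43).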

Other observations

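Of 49 tested genes next to a DEG, 9 had an unadjusted p under 0.05 in the ultrasound main effect, against 8.46% of all tested genes. The 9 include OBERON and ETAG-A3, which are DEGs themselves and each counted as the neighbour of the other. These genes were looked at after the values were seen. PEX14 (Solyc03g114330.3.1), a peroxisomal import protein, lies 2679 bases from the TPR-like DEG and had a log2 fold change of 1.03 (edgeR adjusted p = 0.0520). The gene Solyc07g044910.1.1, 495 bases from the F-box DEG of chromosome 7, had -3.41 (edgeR adjusted p = 0.123). A ribonuclease H gene on the opposite strand, 515 bases from the MOB kinase activator (Solyc07g041740.1.1), had 2.37 (unadjusted p = 0.0206). Whether reads of the DEGs reach these genes was not tested.

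The ethylene-responsive factor Solyc08g082210.4.1 had a log2 fold change of 0.12 in US + D vs. D and 1.92 in US vs. C, with an interaction of -1.80 (unadjusted p = 0.000357, edgeR adjusted p = 0.413).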
